A study of Mus musculus with 8 samples.

Results

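The genes described here are 31 complement components, receptors and regulators, chosen by gene name, among 24547 genes in a count table of mouse liver RNA. All 31 names had a row. Psoraleae Fructus is a herbal medicine made from fruits of Psoralea corylifolia, and the series asks about its harm to the liver. Here 4 liver libraries of ICR mice that received its decoction at high dose into the stomach over 30 days (treated) were set against 4 control libraries of the same strain given saline. ICR is an outbred strain, so animals differ in genotype. The labels give no age, sex, dose by mass or batch, and do not say whether each library is 1 animal, so the p-values measure only the spread between these libraries. The question is which complement genes of the liver differ after the treatment.

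Complement is a cascade of plasma proteins, most of them secreted by hepatocytes, that marks particles for uptake and opens pores in membranes. The classical, lectin and alternative routes start it in different ways and meet at C3, after which C5 to C9 assemble into the membrane attack complex. Soluble and membrane-bound regulators hold it in check on host cells, and the fragments C3a and C5a act on receptors of myeloid cells.

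Of the 30 genes that passed the low-count filter, 2 rose, 4 fell and 24 were not called. Cd59a, a membrane inhibitor of the attack complex, and Cfb, the protease of the alternative route, rose. C6 of the attack complex, Cd55, a membrane inhibitor of the convertases, and the anaphylatoxin receptors C3ar1 and C5ar1 fell. A call is an adjusted p under 0.05 in edgeR's quasi-likelihood test with Benjamini-Hochberg adjustment over all 12861 genes tested, and every adjusted p below is from that test unless another is named. Members called higher were 6.67% of those tested, against 5.46% of all tested genes, and members called lower were 13.3%, against 3.75%. The groups did not overlap for 2 members on the higher side (10.2% of all tested genes) and for 3 on the lower side (8.70%). The median log2 fold change was -0.13 over the members and -0.04 over all tested genes. The calls of Cd59a and C6 were the firmest to the omission of 1 library, being made in 8 and 7 of 8 such fits.

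Library totals ran from 15864399 to 20159132 counts, and log2 CPM (counts relative to the library total, with TMM scaling) correlated at 0.925 to 0.962 among controls and at 0.968 to 0.979 among treated libraries. The members varied less among treated libraries too, with a smaller SD of log2 CPM than in controls for 26 of 30. Control 4 lay inside the treated range for 17 members, against 10 for control 1, 5 for control 2 and 10 for control 3. None of these counts was made over all tested genes, so whether they are particular to the members was not tested. The hepatocyte markers summed to between 109921 and 161254 CPM in controls and between 131197 and 151963 CPM in treated libraries, with Alb, Ttr and Apoa1 the most abundant per length, and 0 of 7 tested were called.

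In level per transcript length (FPKM, mean of the 8 libraries), 7 members stood at 100 or more, 16 between 10 and 100 and 8 under 10. C3 stood far above the rest at 2016 FPKM. Serping1, which encodes the C1 inhibitor, followed at 466 FPKM, Mbl2, a mannose-binding lectin, at 456 and Cfi, the protease that inactivates C3b and C4b, at 320, with Serping1 and Mbl2 overlapping in their libraries. C4b at 266 FPKM and C8g at 263 likewise overlapped. At the low end were Cfb at 0.588 FPKM, C5ar1 at 1.36 and C3ar1, at 1.11 ± 0.298 in controls and 0.545 ± 0.0619 in treated libraries (SD, n = 4), below C2 at 3.85 and Cd55 at 3.39. Another annotated gene on the same strand, Gm20547, shares 79.5% of the exonic bases of Cfb and 42.8% of those of C2. How reads in the shared exons were counted is not known, so the low values of Cfb and C2 may not be their transcript levels. Cfd, the protease that activates factor B and is known as a product of fat cells, had 1 count in treated library 1 and 0 in the other libraries, was not tested, and lay under the floor of 3 counts, which is 0.149 to 0.189 CPM per library. Of the fat cell markers Adipoq stood at 0 to 0.105 CPM and Plin1 and Retn at 0 in every library. Cidec, on the same list, was present, at 7.21, 18.5, 8.61 and 2.05 CPM in controls 1 to 4. In treated libraries 1 to 4 it stood at 4.55, 1.94, 3.22 and 5.26 CPM (adjusted p = 0.189).

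**Figure D1:**
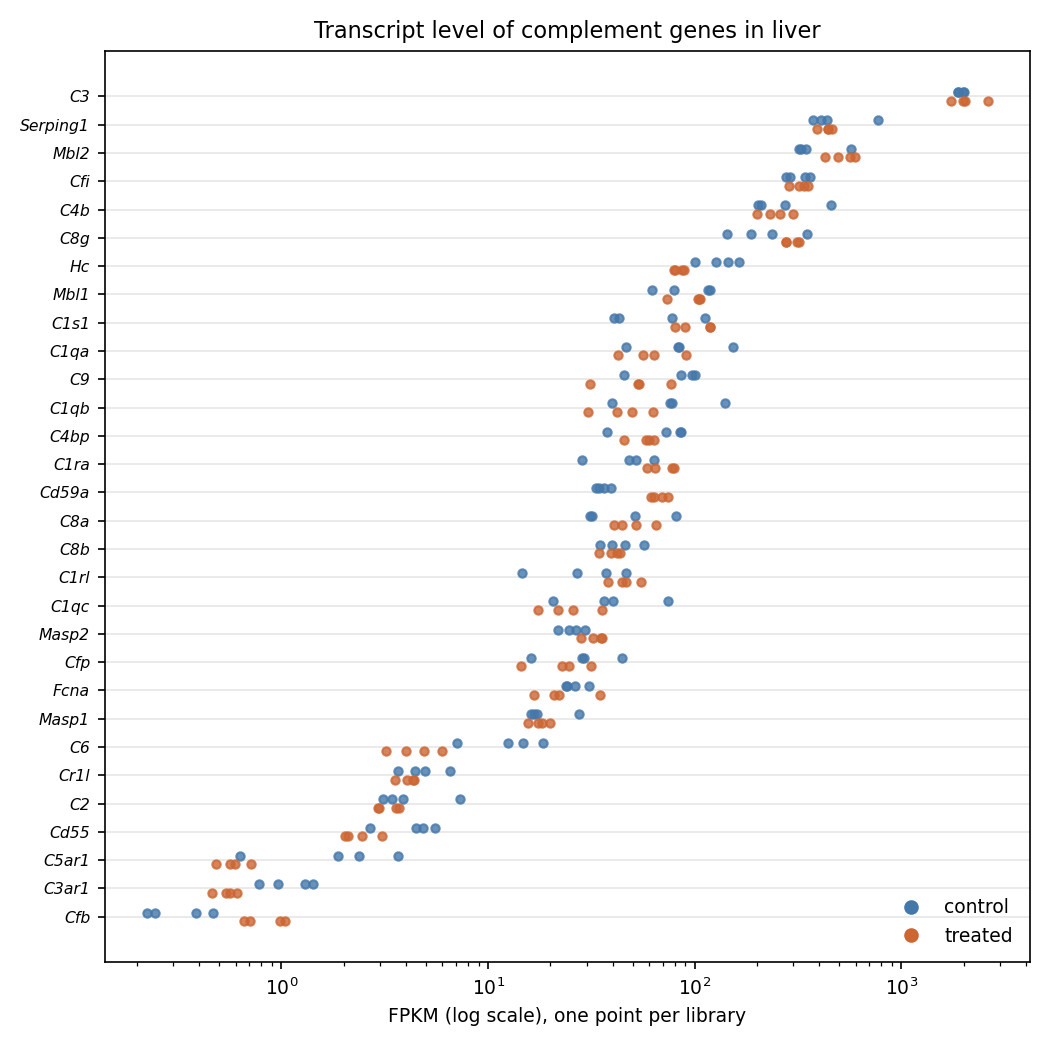
FPKM on a log scale (x axis) of 30 complement genes (y axis, ordered by mean level), with a point per library, control above and treated below in each row; Cfd, with a single count, is left out. C3 at 2016 FPKM lies above all other members, and C5ar1, C3ar1 and Cfb lie lowest. Most exonic bases of Cfb, and a part of those of C2, are shared with another annotated gene.

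Cd59a encodes a GPI-anchored protein that stops C9 from inserting into the membranes of host cells (chromosome 2, 104095801 to 104115354, plus strand, GRCm38). It stood at 63.0, 56.2, 65.9 and 71.9 CPM in controls 1 to 4 and at 126, 107, 144 and 118 CPM in treated libraries 1 to 4. Every treated library lay above every control. The means were 64.2 ± 6.50 and 124 ± 15.5 CPM (SD, n = 4 per group), a log2 fold change of 0.94 (SE 0.13, adjusted p = 0.00596). Omitting any 1 library gave log2 fold changes from 0.87 to 1.03 (adjusted p = 0.00336 to 0.0283). Its neighbouring paralog Cd59b, with which reads could be shared, stood at 2.02 ± 1.53 and 3.48 ± 0.86 CPM (adjusted p = 0.295).

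Cd55 encodes decay-accelerating factor, another GPI-anchored protein, which takes apart the convertases on host cells (chromosome 1, 130439027 to 130462744, minus strand). Controls stood at 13.6, 24.2, 23.4 and 21.7 CPM and treated libraries at 12.0, 14.3, 10.6 and 10.5 CPM. Control 1 lay among the treated libraries and the other controls above them. The mean fell from 20.8 ± 4.85 to 11.8 ± 1.80 CPM (log2 fold change -0.81, SE 0.20, adjusted p = 0.0339). Cd55 was still called in 2 of 8 fits that omitted 1 library, those without control 1 (adjusted p = 0.0108) and without control 4 (adjusted p = 0.0335), and was lost without any of the other libraries (adjusted p up to 0.11). A fit with offsets for exonic length and GC content also lost it (log2 -0.64, adjusted p = 0.0733).

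These membrane regulators act at different steps, and one rose while the other fell. Cr1l, the rodent convertase inhibitor Crry, is the third membrane regulator among the members and stood at 50.0 ± 12.5 in controls and 42.8 ± 3.19 CPM in treated libraries (adjusted p = 0.386). The soluble regulators were not called. Serping1 stood at 908, 1613, 1011 and 957 CPM in controls and at 1037, 876, 1092 and 1109 CPM in treated libraries, so that control 2 stood apart from the other libraries (adjusted p = 0.725). C4bp, a cofactor of Cfi, stood at 462 ± 147 and 389 ± 60.5 CPM and Cfi at 697 ± 103 and 729 ± 76.2 CPM.

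C6, which joins C5b to start the attack complex (chromosome 15, 4727175 to 4814967, plus strand), stood at 54.6, 59.2, 44.4 and 25.2 CPM in controls 1 to 4. Treated libraries stood at 17.5, 20.5, 12.1 and 14.6 CPM, all below control 4, the lowest control. The mean fell from 45.8 ± 15.1 to 16.2 ± 3.60 CPM (log2 fold change -1.50, SE 0.27, adjusted p = 0.0142). Without treated library 3 the log2 fold change was -1.38 and the adjusted p 0.0543, and the call held without any of the other 7.

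Hc, which encodes C5 (chromosome 2, 34983331 to 35061438, minus strand), stood at 1067, 714, 908 and 632 CPM in controls and at 508, 525, 533 and 572 CPM in treated libraries. The groups did not overlap, but Hc was not called (log2 fold change -0.63, SE 0.18, adjusted p = 0.0564). It was called in 6 of 18 alternative fits, among them that without control 4 (log2 -0.74, adjusted p = 0.0186) and DESeq2's Wald test (adjusted p = 0.00753). With the length and GC offsets it stood at an adjusted p of 0.144. An annotated antisense gene shares 1.21% of its exonic bases.

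The other members of the attack complex were not called. C8g, the most abundant per length of these, stood at 292, 192, 353 and 522 CPM in controls and at 417, 457, 501 and 426 CPM in treated libraries, which all lay between controls 3 and 4 (adjusted p = 0.329). C8a stood at 176 ± 86.5 and 186 ± 32.7 CPM and C8b at 112 ± 26.7 and 103 ± 13.3 CPM. C9, whose copies form the pore, stood at 259, 105, 218 and 258 CPM in controls and at 136, 188, 146 and 81.9 CPM in treated libraries, so that control 2 lay among the latter (log2 fold change -0.60, SE 0.32, adjusted p = 0.243).

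The 250 bases before the annotated start of Cd59a, Cd55, C6 and Hc are shown because these are the membrane regulators that moved in opposite directions and the pair that starts the attack complex and stood lower in every treated library. They are from RefSeq on GRCm38.p6, 5′ to 3′ on the strand of the gene, and capitals mark matches to any of 6 motifs on either strand, which are TTCNNNGAA for STAT factors, TTGCNNAA for C/EBP factors, GGNNTTTCC for NF-kB, TATAAA for the TATA box, GGGCGG for the GC box and CCAAT for the CCAAT box.
Cd59a, chr2:104095551-104095800, plus strand: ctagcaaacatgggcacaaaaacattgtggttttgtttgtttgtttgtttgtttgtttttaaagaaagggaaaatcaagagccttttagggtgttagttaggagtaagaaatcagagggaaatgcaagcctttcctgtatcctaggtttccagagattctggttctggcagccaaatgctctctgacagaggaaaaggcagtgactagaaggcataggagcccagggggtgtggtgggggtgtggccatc
Cd55, chr1:130462745-130462994, minus strand: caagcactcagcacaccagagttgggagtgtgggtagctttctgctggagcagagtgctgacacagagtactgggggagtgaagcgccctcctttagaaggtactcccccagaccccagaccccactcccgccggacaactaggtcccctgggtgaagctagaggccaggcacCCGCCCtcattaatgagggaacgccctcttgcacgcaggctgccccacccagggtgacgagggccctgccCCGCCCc
C6, chr15:4726960-4727209, plus strand: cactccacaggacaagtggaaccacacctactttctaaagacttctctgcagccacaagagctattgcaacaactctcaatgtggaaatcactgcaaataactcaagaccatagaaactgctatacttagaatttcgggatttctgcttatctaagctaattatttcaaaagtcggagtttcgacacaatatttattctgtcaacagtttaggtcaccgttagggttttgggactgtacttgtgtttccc
Hc, chr2:35061413-35061662, minus strand: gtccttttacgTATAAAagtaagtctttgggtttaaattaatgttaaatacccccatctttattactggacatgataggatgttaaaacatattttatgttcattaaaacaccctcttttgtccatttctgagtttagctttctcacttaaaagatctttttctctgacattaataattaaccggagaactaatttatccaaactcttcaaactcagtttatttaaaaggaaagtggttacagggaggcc
The stretch before Cd55 held 2 GC boxes and that before Hc 1 TATA motif, 239 bases before the start, and no printed matches overlapped. No match to any of the 6 motifs lay in the stretches before Cd59a and C6, which says only that these letters are not in this window. The starts used are those of RefSeq. By the gene positions given above, from another annotation, the last bases of the stretches for C6 and Hc lie inside the gene. GC content was 44.8% for Cd59a, 64% for Cd55, 40% for C6 and 31.2% for Hc, and CG dinucleotides numbered 0, 8, 4 and 2 in that order, against a median of 6 in all 32851 windows of the table. RefSeq windows matched 24 of the 31 members by symbol, 26 windows in all. A C/EBP match lay in 4 of these 26 windows (15.4%, against 9.56% of all windows), a STAT match in 2 (7.69%, against 7.02%), an NF-kB match in 2 (7.69%, against 4.93%), a TATA match in 2 (7.69%, against 12.4%), a GC box in 3 (11.5%, against 32.7%) and a CCAAT box in 4 (15.4%, against 33.8%).

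**Figure D2:**
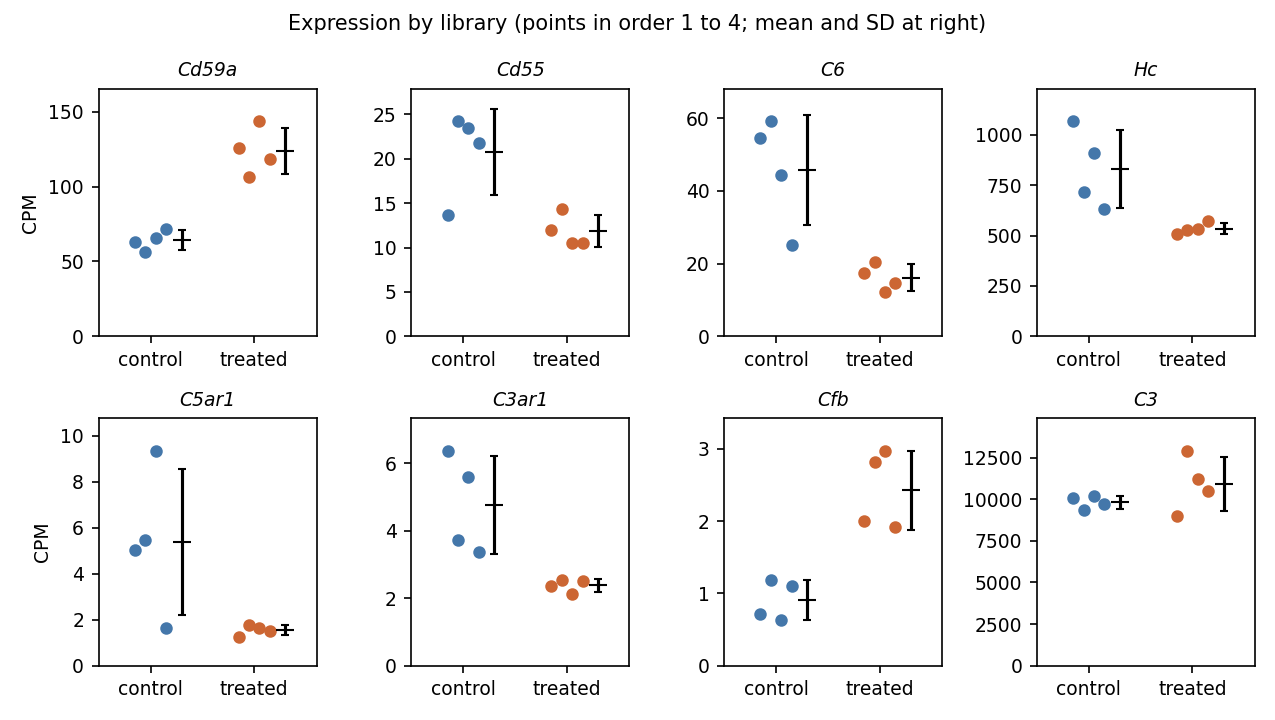
CPM (y axis, from 0) of 8 complement genes in each control and treated library, with points in the order of libraries 1 to 4 and the mean and SD of 4 libraries beside them. Treated libraries lie above all controls for Cd59a and Cfb and below all controls for C6, Hc and C3ar1, while control 1 for Cd55 and control 4 for C5ar1 lie among the treated libraries.

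Of the genes at the centre of the cascade, none was called. C3 stood at 10058, 9349, 10203 and 9699 CPM in controls and at 9015, 12931, 11206 and 10522 CPM in treated libraries, with treated library 1 below and the other 3 treated libraries above all controls (log2 fold change 0.15, SE 0.18, adjusted p = 0.598). C4b, which forms the classical convertase with C2, stood at 1575 ± 546 and 1429 ± 247 CPM and was highest in control 2 at 2354 CPM. C2 stood at 16.6 ± 6.02 and 13.0 ± 1.99 CPM and was also highest in control 2, at 25.4 CPM.

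In the alternative route Cfb (chromosome 17, 34856374 to 34862518, minus strand) rose from a very low level. Its raw counts were 12, 23, 10 and 21 in controls and 40, 48, 49 and 32 in treated libraries. That is 0.721, 1.19, 0.629 and 1.10 against 2.0, 2.82, 2.97 and 1.91 CPM, with every treated library above every control (log2 fold change 1.40, SE 0.32, adjusted p = 0.0295). The call held without control 2 (adjusted p = 0.0448) and without control 4 (adjusted p = 0.0236), and was lost without any of the other 6 libraries (adjusted p = 0.0546 to 0.101). In the GENCODE annotation of GRCm38 the gene Gm20547, on the same strand, shares 79.5% of the exonic bases of Cfb and 42.8% of those of C2, and reads in shared exons cannot be given to 1 gene by position. Gm20547 had no row in the count table, and how reads in the shared exons were counted is not known. The part of this overlap in the low counts of Cfb and C2 was not tested. Cfp, which encodes properdin, the stabiliser of the alternative convertase, stood at 51.3, 69.8, 50.2 and 28.1 CPM in controls and at 39.7, 52.5, 26.8 and 44.0 CPM in treated libraries, and the groups overlapped (adjusted p = 0.522).

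The receptors of C3a and C5a both fell. C5ar1 (chromosome 7, 16246743 to 16259540, minus strand) stood at 5.05, 5.48, 9.37 and 1.63 CPM in controls and at 1.25, 1.76, 1.64 and 1.49 CPM in treated libraries. Control 4 lay among the treated libraries and the other controls above them (log2 fold change -1.80, SE 0.45, adjusted p = 0.0377). C3ar1 (chromosome 6, 122847138 to 122856161, minus strand) stood at 6.37, 3.72, 5.60 and 3.36 CPM in controls and at 2.35, 2.52, 2.12 and 2.51 CPM in treated libraries, without overlap (log2 fold change -0.998, SE 0.26, adjusted p = 0.042). Of 8 fits that omitted 1 library, both receptors were called in 1, that without control 4 (adjusted p = 0.00338 for C5ar1 and 0.0172 for C3ar1). In the other fits the adjusted p reached 0.108 for C5ar1 and 0.12 for C3ar1, and without control 3 the log2 fold change of C5ar1 was -1.40. With the length and GC offsets they stood at log2 -1.82 (adjusted p = 0.0539) and -0.84 (adjusted p = 0.0931).

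These receptors are carried mainly by myeloid cells, and in whole tissue fewer such cells and less RNA per cell cannot be told apart. Of 10 Kupffer cell and macrophage markers 10 had a log2 fold change below 0, as had 6859 of all 12861 tested genes. Adgre1 and Timd4 were called lower, against 3.75% of all tested genes. The summed level of the 10 markers ran from 578 to 1272 CPM in controls and from 364 to 718 CPM in treated libraries. These marker calls held in 1 of 8 fits that omitted 1 library for Adgre1 and for Timd4 (adjusted p up to 0.117 and 0.119), and the length and GC offsets lost both (adjusted p = 0.0739 and 0.0741). The 6 dendritic cell and monocyte markers summed to 8.14 to 22.3 CPM in controls and to 3.40 to 5.22 CPM in treated libraries. Among 5 tested, Ccr2 and Itgax were called lower, against the same 3.75% of all tested genes. They were called in 3 and 2 of 8 fits that omitted 1 library. The 6 neutrophil markers overlapped in their sum, at 6.82 to 15.5 and 6.99 to 17.8 CPM, and 0 of 3 tested were called. These 3 differed in direction, with log2 fold changes of 0.48 for S100a8, 0.59 for S100a9 and -0.99 for Csf3r (SE 0.38, adjusted p = 0.125). Csf3r stood at 4.51, 6.21, 5.41 and 1.57 CPM in controls 1 to 4 and at 1.79 to 2.82 CPM in treated libraries. The part of these cells in the falls of C5ar1 and C3ar1 was not tested.

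The classical route starts with C1, in which the recognition protein C1q carries the proteases C1r and C1s. C1q is made largely by macrophages, and its chains are the members C1qa, C1qb and C1qc, neighbours on chromosome 4 (136880129 to 136898803 in all). C1qa stood at 91.2, 144, 85.9 and 48.8 CPM in controls and at 66.3, 91.0, 47.0 and 60.3 CPM in treated libraries. Control 2 was highest and control 4 lowest among controls for each of the 3 chains, and the groups overlapped. None was called, with log2 fold changes of -0.48 (SE 0.32), -0.80 (SE 0.32) and -0.71 (SE 0.33) for C1qa, C1qb and C1qc. The summed macrophage markers had the same highest and lowest control, 1272 CPM in control 2 and 578 CPM in control 4, and their part in the C1q levels was not tested. Without control 4, C1qb (log2 -1.02, adjusted p = 0.0219) and C1qc (log2 -0.93, adjusted p = 0.0392) were called lower. Without control 2 the log2 fold changes were smaller, -0.18 for C1qa, -0.49 for C1qb and -0.37 for C1qc (adjusted p = 0.721, 0.307 and 0.433). With the length and GC offsets they were larger, -0.99, -1.21 and -0.97, and none was called.

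**Figure D3:**
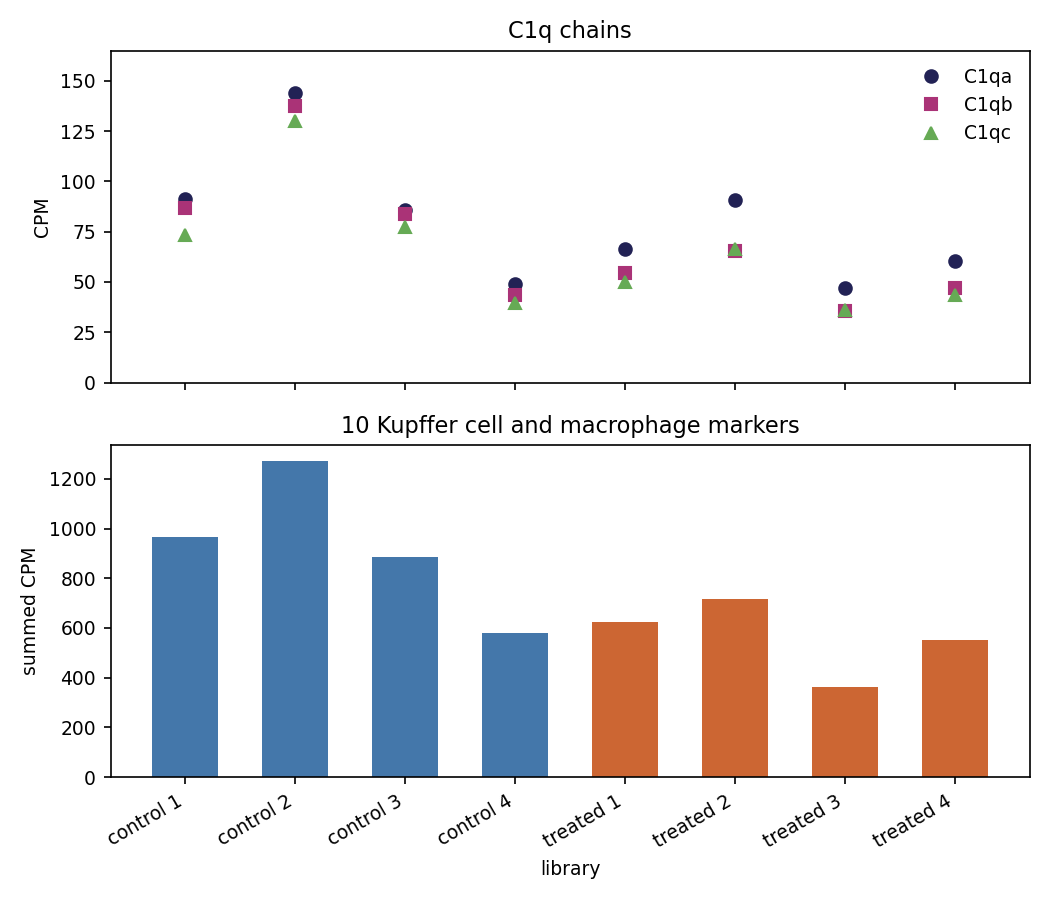
Upper panel, CPM of the 3 C1q chain genes in each library; lower panel, summed CPM of 10 Kupffer cell and macrophage markers in the same libraries (blue bars control, orange bars treated). Control 2 is highest in both panels, and treated library 3 is lowest in both.

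The proteases of C1 had log2 fold changes above 0, and none was called. C1s1 had the highest FPKM of the classical members over all 8 libraries, though in controls C1qa (91.7 FPKM) and C1qb (83.3 FPKM) stood above it (68.3 FPKM). It stood at 254, 122, 127 and 351 CPM in controls and at 375, 358, 299 and 260 CPM in treated libraries, so that control 4 lay among the treated libraries and the other controls below them, 2 and 3 by far (log2 fold change 0.60, SE 0.34, adjusted p = 0.268). C1ra stood at 142 ± 45.0 and 211 ± 25.4 CPM (log2 0.58, SE 0.22, adjusted p = 0.124) and C1rl, a C1r-like protease gene next to it, at 92.1 ± 39.7 and 141 ± 25.1 CPM (adjusted p = 0.206). C1ra and C1s1 have the paralogs C1rb and C1s2 at the same locus, so reads could be shared, and a gene annotated antisense to C1s1 shares 18.4% of its exonic bases. Without control 4 all 3 proteases were called higher (log2 0.95 for C1s1, 0.75 for C1ra and 0.90 for C1rl, adjusted p = 0.0436, 0.0387 and 0.0434). Omitting other controls gave lower values, down to 0.41 for C1s1 and 0.40 for C1ra without control 3 and 0.39 for C1rl without control 1, and no call.

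In the lectin route, in which mannose-binding lectins and ficolins bind sugars and carry the proteases Masp1 and Masp2, none of 5 members was called. Mbl2 stood at 376, 344, 352 and 632 CPM in controls and at 547, 632, 665 and 486 CPM in treated libraries, with control 4 among the treated libraries and the other controls below them (log2 fold change 0.45, SE 0.22, adjusted p = 0.203). Mbl1 stood at 146 ± 44.7 and 155 ± 26.9 CPM. Fcna, a ficolin known from macrophages, stood at 35.8 ± 6.07 and 32.7 ± 9.40 CPM and Masp1 at 188 ± 56.7 and 178 ± 15.6 CPM. Masp2 stood at 83.5 ± 11.3 and 111 ± 14.5 CPM (log2 fold change 0.41, SE 0.14, adjusted p = 0.0939). Of the exonic bases of Masp2, 54.9% are shared with Tardbp on the opposite strand, and without strand, reads in the shared bases cannot be told from those of Tardbp.

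**Figure D4:**
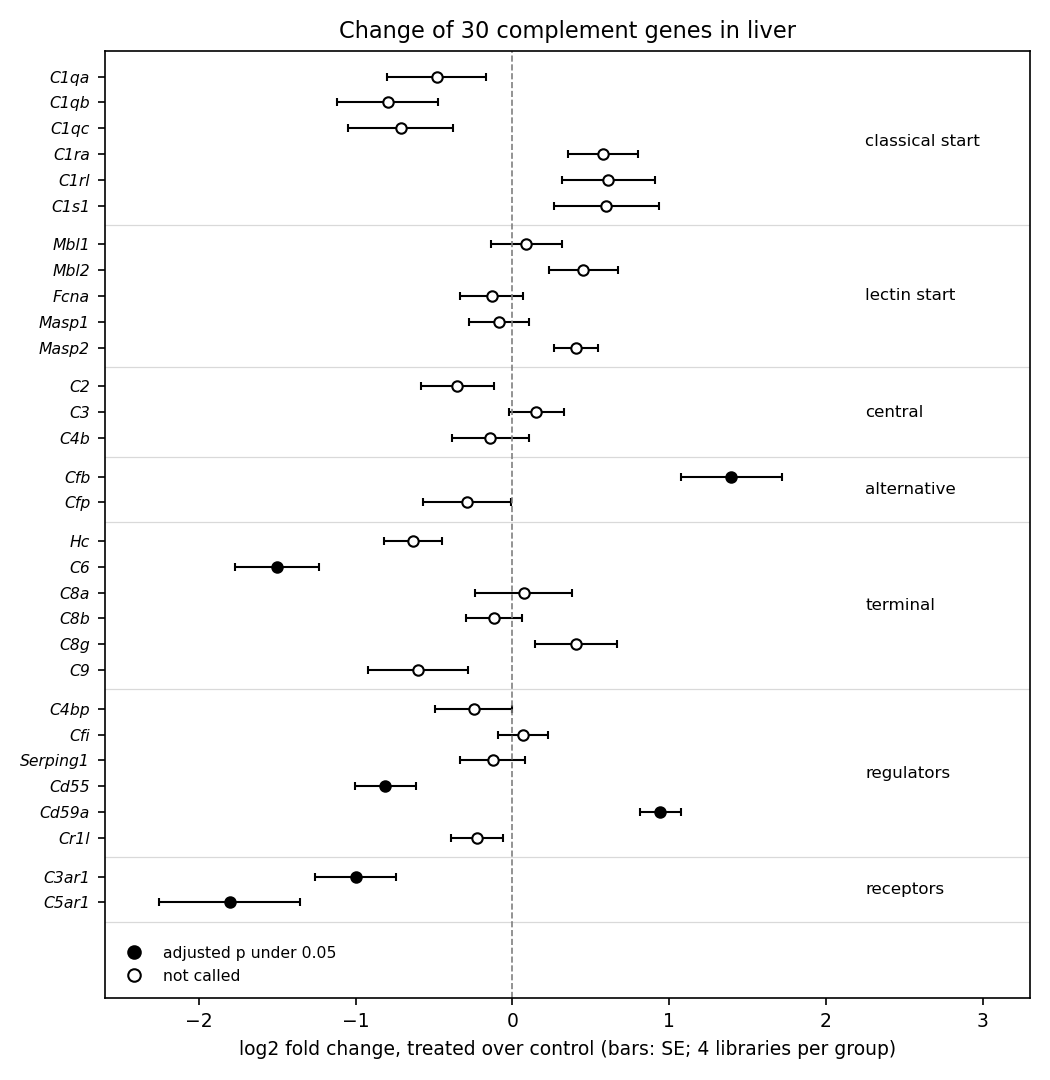
Log2 fold change of treated over control (x axis, bars are SE, 4 libraries per group) for the 30 tested complement genes (y axis) grouped by role; filled points are called at an adjusted p under 0.05. Cd59a and Cfb are filled on the right, C6, Cd55, C3ar1 and C5ar1 on the left, and the 24 open points lie between -0.80 and 0.61.

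Of the 24 uncalled members 17 had a log2 fold change within 0.5 of 0. The count of called members moved most with control 4. Without it 15 of 30 were called, 8 higher and 7 lower, against 9.35% of all tested genes higher and 8.45% lower in the same fit. The 9 added were C1ra, C1rl, C1s1, Mbl2, Masp2 and C8g on the higher side and C1qb, C1qc and Hc on the lower side. Without controls 2 and 4 together 7 were called, 3 higher and 4 lower, with C1rl and Hc added and Cd55 lost. In that fit 616 of all 13329 tested genes were called higher and 459 lower. With any other single library left out, 1 to 3 were called, against 183 to 1122 of 13019 to 13130 tested genes in the same fits.

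Of 34 other genes of the complement system 28 were tested, 3 fell (3.75% of all tested genes did) and none rose (5.46%). Itgb2 and Itgax, chains of the integrin receptors for the C3 fragment iC3b, both fell. Itgam, another such chain on the list, did not, at 0.634 ± 0.257 CPM in controls and 0.702 ± 0.170 CPM in treated libraries (adjusted p = 0.826 for 0.16, SE 0.40). Itgb2 stood at 25.7 ± 14.2 CPM in controls and 9.78 ± 1.86 CPM in treated libraries (adjusted p = 0.041 for a log2 fold change of -1.39, SE 0.35), and Itgax at 1.57 ± 0.718 and 0.467 ± 0.098 CPM (adjusted p = 0.0361 for -1.73, SE 0.42). Itgb2 was highest in control 2, at 46.0 CPM, and without that library its log2 fold change was -0.94. Itgb2 and Itgax are leukocyte genes, and the macrophage and monocyte marker levels given above apply to them. Itgax is itself one of those dendritic cell and monocyte markers, so its values are in that sum and its call is the same call. Cpb2, a plasma carboxypeptidase that inactivates C3a and C5a, fell as well, with 428 ± 91.5 and 270.4 ± 36.2 CPM (adjusted p = 0.0444 for -0.66, SE 0.18). Omitting 1 library at a time left Itgb2 called in 3 of 8 fits, Itgax in 2 and Cpb2 in 2, with adjusted p up to 0.121, 0.096 and 0.124.

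Of 26 listed regulators of complement gene transcription 23 were tested, 1 rose and 3 fell, against 5.46% and 3.75% of all tested genes. Stat3, which carries the interleukin-6 signal, fell, with 170.3 ± 33.1 CPM in controls and 100.2 ± 9.23 CPM in treated libraries (adjusted p = 0.0216 for a log2 fold change of -0.76, SE 0.16). Il6st, the shared receptor chain gp130 of that signal, fell, with 301 ± 45.7 and 203 ± 8.22 CPM (adjusted p = 0.0375 for -0.57, SE 0.14). Nfkb1 fell too, with 33.8 ± 5.99 and 22.2 ± 1.67 CPM (adjusted p = 0.0298 for -0.61, SE 0.14). Cebpa, a liver transcription factor, rose, with 276 ± 68.7 and 516 ± 86.2 CPM (adjusted p = 0.0262 for 0.90, SE 0.20). Omitting 1 library at a time left Stat3 called in 3 of 8 fits, Il6st in 1, Nfkb1 in 2 and Cebpa in 4, with adjusted p up to 0.0681, 0.117, 0.0866 and 0.0862. With the length and GC offsets only Stat3 of these 4 was called (adjusted p = 0.0322), while Cebpa stood at log2 0.49, Il6st at -0.41 and Nfkb1 at -0.39 (adjusted p = 0.161, 0.0903 and 0.132). Any bearing of these genes on the members was not tested.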

How the data were processed

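Counts and FPKM per gene for 8 mouse liver libraries came from 1 deposited table. The deposited values are raw read counts, per the file headers, and FPKM, which equals the count divided by a gene length and the library total, as checked on the values (within 0.1% in 100% of nonzero values). Per the labels' protocols, messenger RNA was taken from Trizol-extracted RNA with poly-T beads. The tools named, per the submitters' processing notes, are DESeq2 1.32.0, HTSeq 0.13.5 and HISAT2, beside the build GRCm38, without their roles. Annotation release and strand setting were not given in the sources used here. The kit, named in the labels, does not mark strand.

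Counts were filtered with filterByExpr (minimum count 10, minimum total 15), scaled by TMM and tested with edgeR 4.0.16 (quasi-likelihood F test, robust, group as the only term) in R 4.3.3; 12861 genes were tested. Adjusted p-values are Benjamini-Hochberg over all of them, and the SE is derived from the F statistic. The fit was tested on simulated counts. Alternatives were other size factors, no filter, DESeq2 1.42.0, limma 3.58.1 on log2(FPKM + 1) and log2(FPKM + 0.1) with mean FPKM of at least 0.5, a replicate block, offsets from splines (4 degrees of freedom) in gene length and GC content, and leaving out libraries. Positions, exon overlaps and GC content are from GENCODE on GRCm38, which held 24540 of the identifiers; 9 symbols in date form were replaced. No pair of libraries was near-identical (chi-square per degree of freedom at least 31.6).

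The members and lists were chosen with earlier results of these data known. All members are accounted for; every library is given for members that were called, whose groups did not overlap, or that had the highest FPKM of their role. Other members given by library, and genes of other lists beyond those called and the most abundant, were chosen after their values were seen. Of the listed marker genes, stellate cells (1 of 6 called, Pdgfra lower), sinusoidal endothelium (2 of 6, Pecam1 and Tek lower) and T and NK cells (2 of 4 tested, Cd3g and Nkg7 lower) complete those in the text. The share called lower over all tested genes was 3.75%. Of fat cell markers 1 was tested and none called. The most abundant listed transcription regulators were Hnf4a (200.2 FPKM) and Cebpa (149 FPKM), and the most abundant other complement genes Vtn (942 FPKM) and Apcs (443 FPKM).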

Additional observations from a re-analysis of the deposited data

Results flagged for a closer look

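Among 60 groups of 4 libraries (30 members in control and treated libraries) 3 held a library far from the other 3 by Dixon's test at the 95% level, and chance alone gives about 5% of groups, which is 3. Mbl2 stood at 631.57 CPM in control 4, against 344 to 376 CPM in the other controls. Serping1 stood at 1613.2 CPM in control 2, against 908 to 1011 CPM. Masp1 stood at 154.5 CPM in treated library 1, against 183 to 189 CPM in the other treated libraries. The cause was not tested.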

How the results depend on the processing

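No called member changed direction in any alternative tried. Of 540 member values under alternatives 485 kept their side of the threshold, 40 lost a call and 15 gained one, 9 of the latter without control 4. The 6 called members became 3 after the length and GC correction (Cd59a, Cfb and C6) and 3 with the replicate number as a block (Cd59a, Cd55 and C6), and 1 to 15 with single libraries left out, 1 without treated library 3 and 15 without control 4. Over all genes 1184 calls became 569 after the correction, 2153 with DESeq2's Wald test and 183 (without treated library 3) to 2330 (without control 4) with single libraries left out. The cause was not tested, though the fits without a library hold fewer samples. Replicate numbers gave no clear sign of pairing the libraries. Deviations of same-numbered libraries correlated at -0.012 to 0.18, and 1 of 4 controls, control 1, correlated best with its own number. These correlations were not tested, so pairing is not settled. The block gave 944 calls over all genes. Cd59a was called in all 18 alternatives (log2 0.87 to 1.03) and C6 in 17. Low counts limit the values of Cfb, with 10 to 49 counts per library, C5ar1, C3ar1 and Cfd.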

Other observations

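Values chosen after the data were seen concern the C1 genes. The paralog C1rb stood at 7.51, 93.4, 67.2 and 12.0 CPM in controls 1 to 4 and at 19.9, 8.97, 25.6 and 17.3 CPM in treated libraries 1 to 4. The controls with the highest C1rb, 2 and 3, were those with the lowest C1s1, at 122 and 127 CPM. C1s2, the paralog of C1s1, was also lowest in these controls, at 7.71 and 7.67 CPM, against 8.89 and 13.9 CPM in controls 1 and 4 and 11.5 to 20.6 CPM in treated libraries. The treated libraries did not repeat this order. Among them C1rb was highest in library 3, while C1s1 was lowest in library 4, at 260 CPM, and C1s2 in library 2, at 11.5 CPM. The mice are of an outbred strain, and genotype was not analysed here.

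The C1q protein holds its chains in equal number, and their transcripts per length were compared within each library as ratios of FPKM. C1qb to C1qa was 0.853 to 0.935 in controls and 0.687 to 0.783 in treated libraries, without overlap (means 0.901 ± 0.035 and 0.735 ± 0.041, SD, n = 4 per group; two-sided exact permutation test over 70 assignments, p = 0.0286, which is its minimum; adjusted p = 0.0429 over the 3 ratios). C1qc to C1qa was 0.4325 to 0.485 in controls and 0.388 to 0.411 in treated libraries, also without overlap (exact permutation p = 0.0286, adjusted p = 0.0429). C1qc to C1qb was 0.477 to 0.533 and 0.517 to 0.572 and overlapped (exact permutation p = 0.2). A ratio shows unequal change, not which chain changed. The exonic length of C1qa, C1qb and C1qc is 1040, 1088 and 1931 bases and the GC content 59.5%, 57.4% and 57.5%. With the offsets for length and GC content the log2 fold changes were -0.99, -1.21 and -0.97, against -0.48, -0.80 and -0.71 without them, so the values of C1qc and C1qa lay close together and the lower ratio of C1qc to C1qa was not seen there. That of C1qb still lay below that of C1qa, and the difference was not tested in that fit.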
